A study of Mus musculus with 4 samples.

Results

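The 6 genes described here, Btg2, Cdkn1b, Ccng2, Gadd45a, Gadd45g and Mxd1, encode proteins that slow or stop the cell cycle, and each was picked by its symbol in RNA-seq of G1E cells, a mouse erythroblast line. All 6 were found among the 2982 genes that appear in any of the authors' 6 deposited pairwise tables, out of 12931 genes tested. A level in all 4 groups was given for 1157 of the 2982 and for 5 of the 6, Gadd45g having no level in GATA-1 V205M. G1E cells were derived from mouse cells that lack GATA-1, the zinc finger factor on which red cell maturation depends. The groups, of 1 sample each, were G1E cells with the GATA-1 2RA mutant, with the GATA-1 V205M mutant or with the unmutated protein (GATA-1 WT), and the G1E control. V205M is known to weaken the contact of GATA-1 with its cofactor FOG-1, and what the 2RA mutation alters is not told by the labels. The labels give β-estradiol for all 4 groups, the G1E control included, with no dose or time, and do not say whether the cells were a single clone or whether the introduced proteins carry a receptor domain that binds estradiol.

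In red cell precursors, maturation is coupled to the end of division: cells pass through a few rapid divisions while filling with hemoglobin and then leave the cell cycle before the nucleus is expelled. Proteins that inhibit cyclin-dependent kinases, that shorten the life of growth-promoting messenger RNA, or that oppose Myc are known to take part in this exit. Genes of these classes are also induced in other tissues as cells stop dividing or meet stress.

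Levels are the authors' read counts, each divided by its library's size factor, and are called scaled reads here. A gene is called listed in a pair of groups when it stands in the authors' deposited table of that pair, whose limits were 0.01 on the adjusted p and a 2-fold change. A gene that is not listed was below those limits or was not tested. The G1E control and GATA-1 V205M levels are each a mean of 2 count columns, which may be separate cultures or repeat runs, since no source used here says. With 1 sample a group there is no replicate spread, so each ratio below has a 95% interval that covers only the counting error of the pooled reads. For the G1E control and GATA-1 V205M, the printed ratio uses the mean of the 2 columns instead. The estimates can differ: Ccng2 in GATA-1 WT was 7.39 times the control by the mean and 6.002 times by pooled reads. The mean weighs both columns equally, whatever their reads, so its own counting error can be wider than the interval shown. These are bulk samples, in which fewer cells of a type and less RNA per cell cannot be told apart.

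Gata1 itself had 1421 scaled reads in GATA-1 2RA, 614 in GATA-1 V205M, 2652 in GATA-1 WT and 153 in the G1E control. Both mutants thus differed from GATA-1 WT in the level of Gata1 RNA as well as in the mutation, and the part of each was not tested. The reads recovered over listed genes came to 276064 to 2178397 per count column, lowest in the second column of the G1E control. The 11 erythroid markers with a level in all 4 groups, of 12 on the list, summed to 7394 scaled reads in GATA-1 2RA, 5166 in GATA-1 V205M, 80074 in GATA-1 WT and 6184 in the G1E control, and each of the 11 was highest in GATA-1 WT. The 6 mast cell markers in the tables, of 10 on the list, summed to 2440 scaled reads in GATA-1 2RA, 3315 in GATA-1 V205M, 194 in GATA-1 WT and 5612 in the G1E control. This sum does not stand for each marker: Cpa3 and Kit were highest in the control, at 2795 and 2429 scaled reads. Ms4a2, Hdc, Tpsab1 and Il1rl1 were highest in GATA-1 V205M, at 383, 121, 474 and 882 scaled reads. Their levels in the control were 140, 29.5, 55.1 and 163.5. Of the megakaryocyte list 1 of 7 was in the tables, and of the neutrophil and macrophage list and the lymphocyte list 0 of 7 and 0 of 5. The erythroid marker sum was thus highest in GATA-1 WT, as was each member among the groups that gave it a level. For Mxd1 the lead over GATA-1 V205M, and for Gadd45g the lead over GATA-1 2RA, lay within counting error and changed sides with scaling. The part of the erythroid markers in the levels of the members was not tested.

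The promoters of the members are shown because the members were measured together in cells that differ in GATA-1. RefSeq windows of 300 bases on GRCm38.p6, from 250 bases before to 50 bases after the start site, were at hand for 6 of 6 members. Motifs were searched on both strands. Neither GATA motif searched, AGATAA (held by 11.2% of all 32851 promoter windows) or TGATAA (9.05%), was in any of the 6 windows. The forkhead motif TGTTTAC (3.65% of all windows) and the Klf1 motif CCACACCC (3.56%) also had no match in the 6. These letters are then not in these windows, which says nothing on binding elsewhere. The E-box CACGTG, a sequence that Myc-Max and Mxd-Max dimers bind, was in 7.15% of all windows and in 1 of the 6, that of Gadd45g, starting 142 bases before the start site. CCAAT, a motif added after the windows had been seen, was in 37.4% of all windows and in 5 of the 6, with none in Ccng2. No match of one motif overlapped a match of another. The member windows were 61 to 76.7% G and C, against a median of 52.7% over all windows, and held 14 to 39 CpG dinucleotides, against a median of 7. The 250 bases before the start site are given for Btg2, the member with the highest ratio of GATA-1 WT to the G1E control, for Gadd45g, which holds the E-box, and for Mxd1, which holds 4 CCAAT matches. Motif matches are in capitals. Btg2 is from chr1:134079156-134079405 on the minus strand, Gadd45g from chr13:51846425-51846674 on the plus strand and Mxd1 from chr6:86669160-86669409 on the minus strand.
Btg2: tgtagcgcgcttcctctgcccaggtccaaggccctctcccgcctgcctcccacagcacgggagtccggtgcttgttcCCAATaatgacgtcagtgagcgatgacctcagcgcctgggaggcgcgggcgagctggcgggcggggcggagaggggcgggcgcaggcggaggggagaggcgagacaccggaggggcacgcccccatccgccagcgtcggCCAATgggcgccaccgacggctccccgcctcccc
Gadd45g: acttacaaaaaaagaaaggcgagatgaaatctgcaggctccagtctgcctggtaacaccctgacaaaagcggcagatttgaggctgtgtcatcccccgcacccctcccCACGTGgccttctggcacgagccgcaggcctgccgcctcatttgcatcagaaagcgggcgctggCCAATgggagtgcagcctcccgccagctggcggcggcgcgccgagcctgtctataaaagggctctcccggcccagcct
Mxd1: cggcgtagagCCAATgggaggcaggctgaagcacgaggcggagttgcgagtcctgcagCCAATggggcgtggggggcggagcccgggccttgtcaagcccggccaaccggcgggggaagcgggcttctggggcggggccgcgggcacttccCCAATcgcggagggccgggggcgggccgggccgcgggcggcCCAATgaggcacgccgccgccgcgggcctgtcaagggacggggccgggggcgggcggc

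In GATA-1 WT against the G1E control, all 6 members were listed as higher in the authors' deposited table, where 8.17% of the tested genes were listed as higher and 13.0% in either direction. The ratios ran over a wide range, and Btg2 stood far above the other members. For GATA-1 2RA against the control, 4 of 6 were listed as higher (Btg2, Cdkn1b, Gadd45g and Mxd1), beside 4.86% of tested genes (7.46% in either direction). For GATA-1 V205M against the control, 2 of 6 were listed as higher (Btg2 and Mxd1), beside 4.83% of tested genes (8.15% in either direction). Against GATA-1 WT, the same 4 members, Btg2, Cdkn1b, Ccng2 and Gadd45a, were listed as lower in both mutants, beside 4.04% of tested genes for GATA-1 2RA (7.38% in either direction) and 5.65% for GATA-1 V205M (9.36% in either direction). No member was listed between GATA-1 2RA and GATA-1 V205M, where 6.23% of tested genes were listed in either direction. The members were chosen with earlier results of these data known, so these counts are a description. Stricter limits in the authors' deposited tables lowered some of these counts and kept others. At an adjusted p below 1e-05, 1 member was higher in GATA-1 2RA than in control cells (2.64% of tested genes), 2 in GATA-1 V205M (3.04%) and 3 in GATA-1 WT (4.69%). At that limit GATA-1 2RA had 3 members lower than GATA-1 WT (2.40%), and GATA-1 V205M had 4 (3.45%). Above 4-fold, 2 were higher in GATA-1 2RA than in control cells (1.52%), 1 in GATA-1 V205M (1.20%) and 4 in GATA-1 WT (2.69%), while GATA-1 2RA had 3 lower than GATA-1 WT (1.18%) and GATA-1 V205M had 4 (1.79%). Between the mutants 0 members passed either limit, beside 2.35% of tested genes above 4-fold and 3.45% at the adjusted p. A minimum of 50 scaled reads in the higher group changed none of the 6 counts. With that minimum, the shares of tested genes listed as higher than the control were 4.64% for GATA-1 2RA, 4.51% for GATA-1 V205M and 7.99% for GATA-1 WT. The shares listed as lower than GATA-1 WT were 3.87% for GATA-1 2RA and 5.34% for GATA-1 V205M, and 5.61% were listed in either direction between the mutants. The 3 comparisons with the G1E control share its sample, and the 2 mutants against GATA-1 WT share that one.

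**Figure D1:**
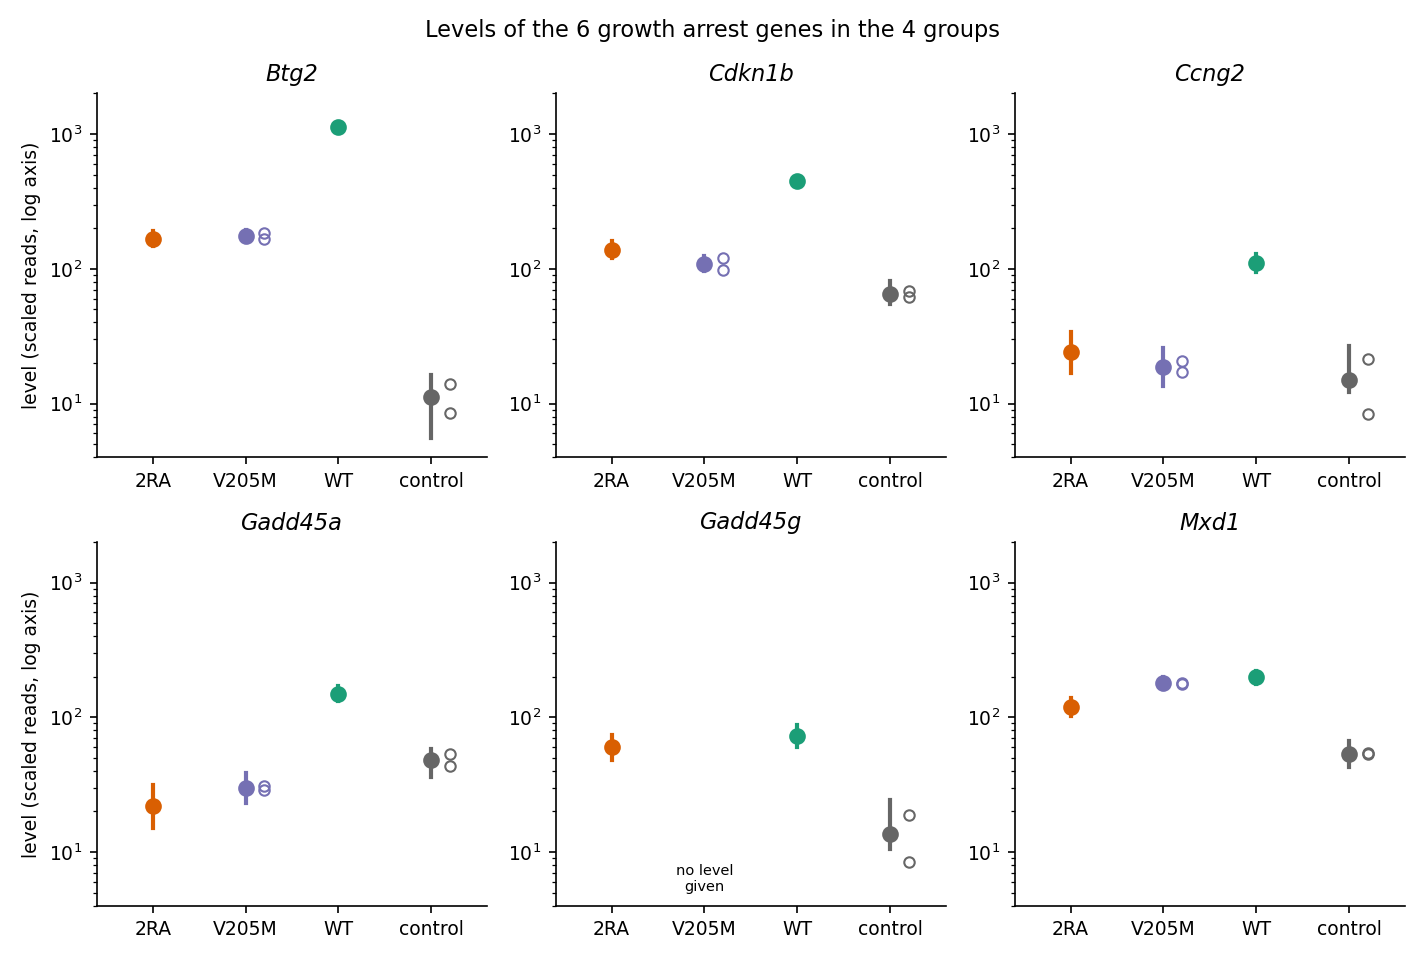
Level of each of the 6 members in scaled reads (log axis) in GATA-1 2RA, GATA-1 V205M, GATA-1 WT and the G1E control, 1 sample a group, with 95% counting intervals of the pooled reads. Btg2 has 1120 scaled reads in GATA-1 WT and 11.3 in the G1E control, Gadd45a is lowest in the 2 mutants, and Gadd45g has no level in GATA-1 V205M.

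Btg2 belongs to the BTG and Tob family of antiproliferative proteins, which bring the CCR4-NOT deadenylase to messenger RNA and so speed its decay. It lies on chromosome 1, at 134075170 to 134079120 on the minus strand of GRCm38. Btg2 had 167 scaled reads in GATA-1 2RA, 174 in GATA-1 V205M, 1120 in GATA-1 WT and 11.3 in the G1E control. The count columns behind the means were close for GATA-1 V205M, at 183 and 165, and stood at 8.57 and 14.0 in the G1E control, on 10 and 5 reads. GATA-1 WT was by far the highest, the mutants were level with each other within counting error, and the control was far below all 3. The ratio of GATA-1 WT to the G1E control was 99.3 (68.9 to 204), which placed Btg2 at rank 8 of the 1057 genes listed as higher in the authors' deposited table. GATA-1 2RA was 14.8 times the G1E control (10.1 to 30.9) and GATA-1 V205M 15.4 times (10.6 to 32.1). The level in GATA-1 2RA was 14.9% of the GATA-1 WT level (13.0 to 17.1%), and that in GATA-1 V205M 15.5% (13.9 to 17.4%). The ratio of GATA-1 2RA to GATA-1 V205M was 0.96 (0.809 to 1.13). Btg2 was thus listed in all 5 pairs that set it against the G1E control or GATA-1 WT. Of the 9 genes on the list of the family and its partners, Btg2 was the 1 found in any table.

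Cdkn1b encodes p27Kip1, which binds and inhibits the complexes of CDK2 with cyclin E and cyclin A. It lies on chromosome 6, at 134920401 to 134925513 on the plus strand. Its level was 139 scaled reads in GATA-1 2RA, 109 in GATA-1 V205M, 450 in GATA-1 WT and 65.0 in the G1E control. The 2 columns of GATA-1 V205M were 119 and 98.2, and those of the G1E control 68.5 and 61.6. The mutants lay above the control and far below GATA-1 WT, and their own counting intervals overlapped. GATA-1 WT was 6.91 times the G1E control (5.46 to 8.36). GATA-1 2RA was 2.13 times the G1E control (1.62 to 2.66), just past the 2-fold limit and listed, with an adjusted p of 0.00356 in the authors' deposited table. GATA-1 V205M was 1.67 times the G1E control (1.29 to 2.09) and was not listed. The 2 mutants thus fell on different sides of a limit, while the ratio between them, 1.27 (1.04 to 1.53), was itself not listed. The edgeR test of recovered reads called it, as it did 76.1% of the 1157 genes in that pair, and also called Cdkn1b higher in GATA-1 V205M than in control cells. Relative to GATA-1 WT, the level was 30.8% for GATA-1 2RA (26.2 to 36.2%) and 24.2% for GATA-1 V205M (20.96 to 28.3%).

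Ccng2 encodes cyclin G2, an unconventional cyclin that accumulates as cells leave the cycle and that slows division when overexpressed. It lies on chromosome 5, at 93267257 to 93276231 on the plus strand. Ccng2 had 24.3 scaled reads in GATA-1 2RA, 18.8 in GATA-1 V205M, 110 in GATA-1 WT and 14.9 in the G1E control. These rest on 34 reads in GATA-1 2RA, on 24 and 17 in the columns of GATA-1 V205M, on 175 in GATA-1 WT and on 25 and 3 in the columns of the G1E control. GATA-1 WT stood apart and the other 3 groups were close: the intervals of the mutants overlapped each other, and that of GATA-1 V205M overlapped the control. GATA-1 WT was 7.39 times the G1E control (4.01 to 9.29), or 5.15 times the first control column alone and 13.1 times the second. GATA-1 2RA was 1.63 times the G1E control (0.779 to 2.26) and GATA-1 V205M 1.26 times (0.623 to 1.73), and neither was listed. Against GATA-1 WT, the level was 22.04% for GATA-1 2RA (14.8 to 32.0%) and 17.1% for GATA-1 V205M (11.9 to 24.3%), and both were listed as lower. GATA-1 2RA was 1.29 times GATA-1 V205M (0.788 to 2.07), which was not listed.

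Gadd45a and Gadd45g encode small acidic proteins, induced by DNA damage and other stress, that bind PCNA and the kinase MAP3K4 and can inhibit the CDK1 and cyclin B complex. Gadd45a lies on chromosome 6, at 67035096 to 67037457 on the minus strand, and overlaps an antisense gene, E230016M11Rik, that is in none of the tables. The labels do not say that strand was used in counting, so reads of the overlap cannot be told apart. Gadd45a had 22.1 scaled reads in GATA-1 2RA, 30.0 in GATA-1 V205M, 149.9 in GATA-1 WT and 48.4 in the G1E control. The columns were 30.9 and 29.0 in GATA-1 V205M and 43.7 and 53.2 in the G1E control, so that the 3 values from mutant cells all lay below both control columns. Gadd45a was the member for which the G1E control was not the lowest group. GATA-1 WT was 3.10 times the G1E control (2.49 to 4.33). GATA-1 2RA was 0.457 of the G1E control (0.305 to 0.746) and GATA-1 V205M 0.619 (0.460 to 0.931). Both intervals lie below 1, yet neither pair was listed, and the separate counting intervals of GATA-1 V205M and the control overlapped. An edgeR quasi-likelihood test of the recovered reads, added after seeing the data and taking count columns as replicates, called Gadd45a lower in both mutants than in control cells. It also called 77.6% of its 1157 genes between GATA-1 2RA and the control and 78.9% between GATA-1 V205M and the control, all of them genes selected for change in some pair. As a share of the GATA-1 WT level, Gadd45a was at 14.8% for GATA-1 2RA (9.82 to 21.5%) and 20.01% for GATA-1 V205M (15.0 to 26.5%), and both were listed as lower. GATA-1 2RA was 0.738 of GATA-1 V205M (0.464 to 1.15).

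Gadd45g lies on chromosome 13, at 51846678 to 51848468 on the plus strand. Its level was 60.0 scaled reads in GATA-1 2RA, 73.1 in GATA-1 WT and 13.6 in the G1E control, on 84 reads in GATA-1 2RA, 116 in GATA-1 WT, and 22 and 3 in the columns of the control. It is absent from the 3 tables with GATA-1 V205M, so no level is known there. GATA-1 2RA and GATA-1 WT overlapped within counting error, and both lay above the control. GATA-1 WT was 5.36 times the G1E control (2.87 to 7.17), with 3.88 against the first control column alone and 8.70 against the second. GATA-1 2RA was 4.41 times the G1E control (2.32 to 5.97), with 3.18 against the first column and 7.15 against the second, and its adjusted p in the authors' deposited table was 0.00631. GATA-1 2RA was 0.821 of GATA-1 WT (0.613 to 1.10), which was not listed. Under upper quartile scaling over the 1157 genes that ratio became 1.07. The 2 Gadd45 genes therefore differed in GATA-1 2RA: Gadd45a was below its control level, while Gadd45g was listed above it. The difference between the 2 genes was not tested.

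Mxd1 encodes a partner of Max whose dimer binds the same E-boxes as Myc and Max and recruits the Sin3 corepressor. It lies on chromosome 6, at 86647042 to 86669161 on the minus strand, and overlaps Gm44292 on the same strand, from which reads of the overlap cannot be told apart. Mxd1 had 119 scaled reads in GATA-1 2RA, 179 in GATA-1 V205M, 198 in GATA-1 WT and 53.6 in the G1E control. The columns were 180.5 and 177.3 in GATA-1 V205M and 54.0 and 53.2 in the G1E control. All 3 GATA-1 groups lay above the control, and GATA-1 V205M and GATA-1 WT overlapped within counting error. GATA-1 2RA was 2.23 times the G1E control (1.69 to 2.93), GATA-1 V205M 3.34 times (2.62 to 4.28) and GATA-1 WT 3.69 times (2.88 to 4.75), and all 3 were listed. Mxd1 and Btg2 were the members listed as higher in every comparison with the control. Mxd1 stood at 60.3% of its GATA-1 WT level for GATA-1 2RA (49.7 to 73.0%) and 90.5% for GATA-1 V205M (77.8 to 105%), and neither pair was listed. The order of GATA-1 V205M and GATA-1 WT depends on scaling, since their ratio became 1.24 with TMM and 1.33 with upper quartile scaling. GATA-1 2RA was 0.667 of GATA-1 V205M (0.553 to 0.801), under the 2-fold limit. The edgeR test of recovered reads gave a log2 fold of -0.585 for Mxd1 in that pair.

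**Figure D2:**
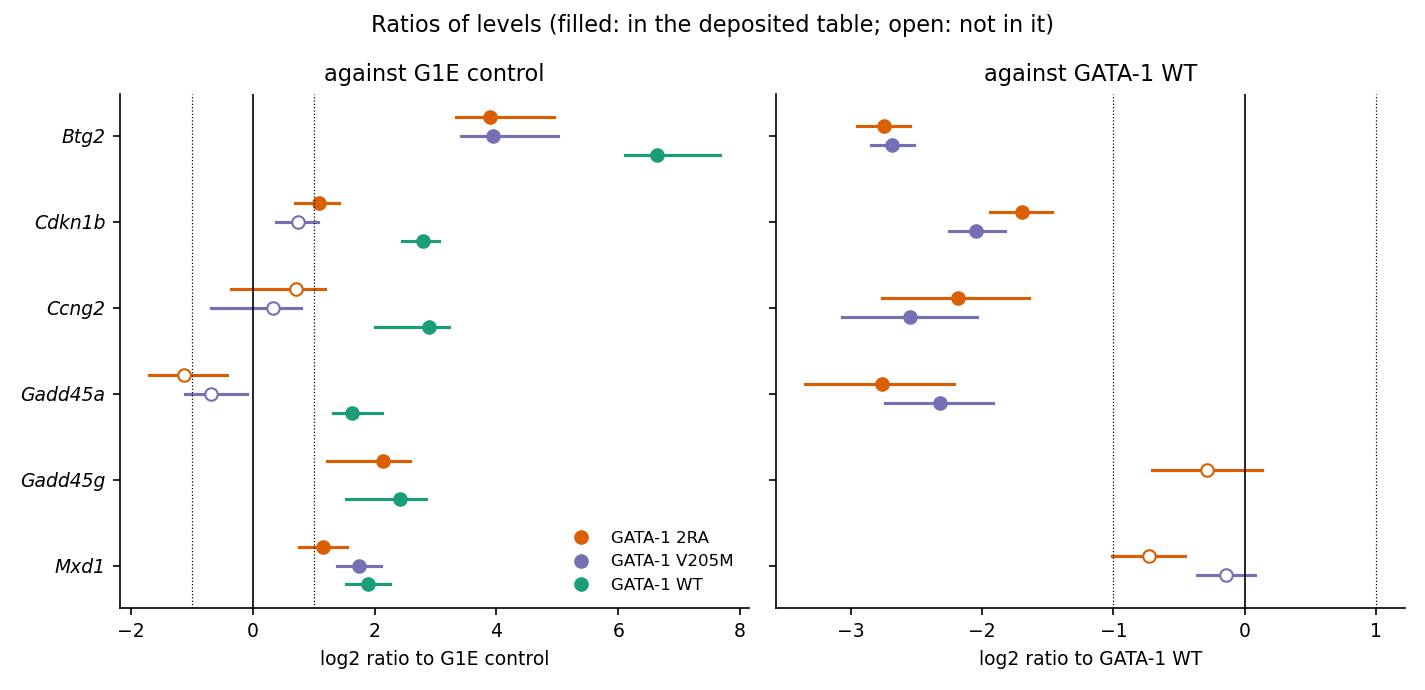
Ratio to the G1E control and to GATA-1 WT (log axis) for each member, with 95% counting intervals of the pooled reads, listed and unlisted pairs marked apart. The pair of the mutants is not drawn. The Gadd45a ratios to the G1E control are 0.457 for GATA-1 2RA and 0.619 for GATA-1 V205M, against 3.10 for GATA-1 WT.

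The share of the step between the G1E control and GATA-1 WT that each mutant reached set the members apart on the linear scale. For Btg2, GATA-1 2RA reached 14.1% and GATA-1 V205M 14.7%. For Cdkn1b the shares were 19.1% for GATA-1 2RA and 11.4% for GATA-1 V205M, and for Ccng2 9.85% for GATA-1 2RA and 4.12% for GATA-1 V205M. For Gadd45a both were negative, at -25.9% for GATA-1 2RA and -18.2% for GATA-1 V205M, since both mutants lay below the control. Mxd1 had the highest share in GATA-1 V205M, 86.9%, with 45.6% in GATA-1 2RA, and Gadd45g the highest in GATA-1 2RA, 78.0%. On the log2 scale, which weighs equal ratios equally, Btg2 had shares of 58.0% for GATA-1 2RA and 58.9% for GATA-1 V205M, so the low linear share of Btg2 goes with a fold over the control that was still the highest among the members in both mutants.

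Set against other genes that GATA-1 WT cells had at a higher level, the members took several courses. Of the 1057 genes that the GATA-1 WT table against the control lists as higher, 33.5% were also listed as higher in GATA-1 2RA than in control cells and 31.6% in GATA-1 V205M than in control cells, beside 4 and 2 of the 6 members. Listed as lower than GATA-1 WT were 31.4% of the 1057 for GATA-1 2RA and 44.7% for GATA-1 V205M, beside 4 of the 6 members each. GATA-1 WT was the highest of the 4 groups for 77% of the 560 such genes with 4 levels, and for all 5 members with 4 levels. Gadd45g, with 3 levels, was also highest in GATA-1 WT. With other scalings, 5 members were highest in GATA-1 WT under TMM and 4 under upper quartile scaling.

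Per kilobase of exon in GENCODE M21, levels can be set beside each other between members. In GATA-1 WT, Btg2 led with 408.5 scaled reads per kilobase, followed by Cdkn1b with 98.8, Gadd45a with 85.0, Gadd45g with 62.3, Mxd1 with 28.0 and Ccng2 with 20.2. In the G1E control the order was Gadd45a with 27.5, Cdkn1b with 14.3, Gadd45g with 11.6, Mxd1 with 7.57, Btg2 with 4.11 and Ccng2 with 2.73. Btg2 thus had the highest level per kilobase of the 6 in GATA-1 WT and the second lowest in the control, whereas Ccng2 was lowest in both. In GATA-1 V205M, Btg2 again led with 63.5 scaled reads per kilobase, followed by Mxd1 with 25.3 and Cdkn1b with 23.9.

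The genes whose pattern was most like that of each member were taken by distance between log2 levels centred on each gene's mean over the 4 samples, among 1123 genes. Cdkn1b had the closest matches, Grina at a distance of 0.0956, Gm9430 at 0.133 and Suv420h2 at 0.163. Mxd1 was nearest to Crbn (0.138), Lrpap1 (0.219) and Slx4 (0.231). Ccng2 was nearest to Narf (0.27), Uros (0.313) and Mff (0.331), and Gadd45a to Prcp (0.338), Bnip3l (0.415) and Nprl3 (0.422). For Btg2 the nearest genes, 1810058I24Rik (1.37), Hebp1 (1.6) and Kalrn (1.61), were much farther off by this distance, which also counts the size of a change. By Pearson correlation, which leaves size out, the 3 genes nearest to Btg2 had r of 0.9998 to 0.9992 over the 4 samples. Between members, Cdkn1b and Ccng2 were nearest, at 0.431 with 19 genes nearer to Cdkn1b, and Btg2 and Gadd45a were farthest, at 4.13. These distances describe 4 samples, and the choice by Pearson correlation shared 0 to 2 of the 3 genes.

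**Figure D3:**
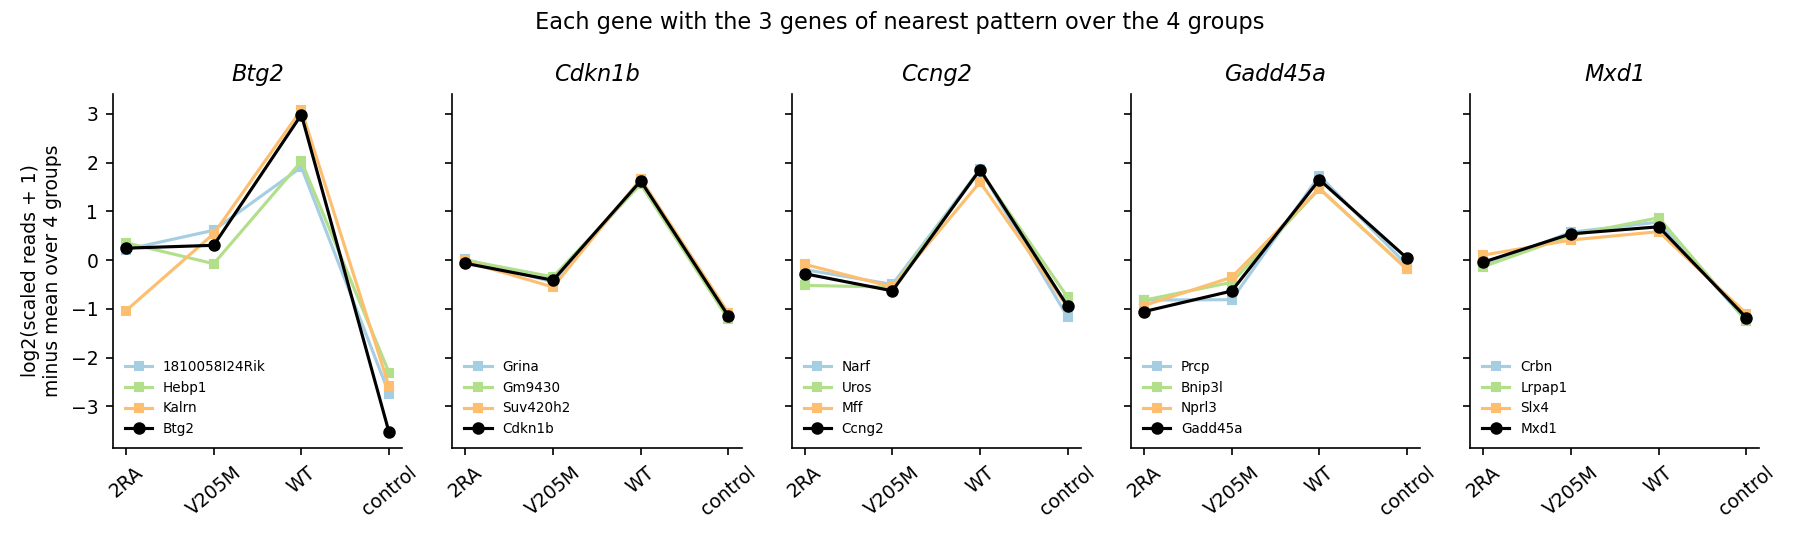
Centred log2 level (log2 of scaled reads plus 1, minus the gene's mean over the 4 groups) of each of the 5 members with 4 levels and its 3 nearest genes, across GATA-1 2RA, GATA-1 V205M, GATA-1 WT and the G1E control. The lines of Cdkn1b and its neighbours nearly coincide, whereas the neighbours of Btg2 lie at distances of 1.37 to 1.61.

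The other genes of the pathways give the setting, counted beside the share of all tested genes listed in the same pair. Against the control these shares, in either direction, were 7.46% for GATA-1 2RA, 8.15% for GATA-1 V205M and 13.0% for GATA-1 WT, and against GATA-1 WT they were 7.38% for GATA-1 2RA and 9.36% for GATA-1 V205M. Most lists are short, so that a count of 1 or 2 says little beside these shares. Of the 8 CDK inhibitors, GATA-1 WT against the G1E control had 2 higher and 0 lower, Cdkn1b and Cdkn3, a phosphatase of CDK2, which had 86.3 scaled reads in GATA-1 WT and 8.79 in the control. Cdkn1a, which encodes p21, was listed in 1 pair, with 1207 scaled reads in GATA-1 2RA and 475 in the G1E control. Cdkn2c, an inhibitor of CDK4 and CDK6, was listed as lower in GATA-1 V205M, at 60.4 scaled reads against 130 in GATA-1 WT. Against GATA-1 WT, the CDK inhibitors had 0 higher and 1 lower in GATA-1 2RA, and 0 higher and 3 lower in GATA-1 V205M.

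Among 16 genes of p27 turnover and its targets, 3 were higher and 3 lower in GATA-1 WT against the control. Skp2, the F-box protein that marks p27Kip1 for destruction, had 23.9 scaled reads in GATA-1 WT and 75.6 in the control. Of the cyclins that p27Kip1 restrains, Ccne1 was listed as higher, at 257 scaled reads in GATA-1 WT against 35.4 in the control. Ccna2 was also listed as higher, at 5412 in GATA-1 WT against 923 in the control, while Ccne2 was not listed in any pair. Cdk6 was listed as lower at 40.3 scaled reads in GATA-1 WT against 225 in the control, and the D-type cyclins moved apart, Ccnd3 at 1705 in GATA-1 WT against 347 in the control and Ccnd2 at 572 in GATA-1 WT against 2143 in the control. The Cdkn1b difference was thus accompanied by higher transcripts of Ccne1 and Ccna2. In the mutants, Ccne1 had 20.7 scaled reads for GATA-1 2RA and 68.1 for GATA-1 V205M, against 257 in GATA-1 WT, and was listed against the control in neither. Ccna2 had 1355 scaled reads for GATA-1 2RA and 2662 for GATA-1 V205M, both listed as lower than the 5412 in GATA-1 WT, and that of GATA-1 V205M was listed as higher than the 923 in the control.

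In the network around Myc, of 18 genes, Mxd1 was listed as higher in GATA-1 WT than in control cells, and 2 were listed as lower. The share of all tested genes listed in that pair, in either direction, was 13.0%, so this count says little. Myc had 152 scaled reads in GATA-1 WT and 530 in the control, and Mnt, another partner of Max that opposes Myc, had 13.2 in GATA-1 WT and 47.4 in the control. In GATA-1 V205M, Myc had 572 scaled reads, listed as higher than the 152 in GATA-1 WT, while Mxd1 was within counting error of GATA-1 WT there. Mxd1 and Myc were therefore on opposite sides of the control in GATA-1 WT, and in GATA-1 V205M the Mxd1 level was high while Myc, at 572 scaled reads against 530 in the control, was not listed against the control. In GATA-1 2RA no level of Myc is known from the tables.

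**Figure D4:**
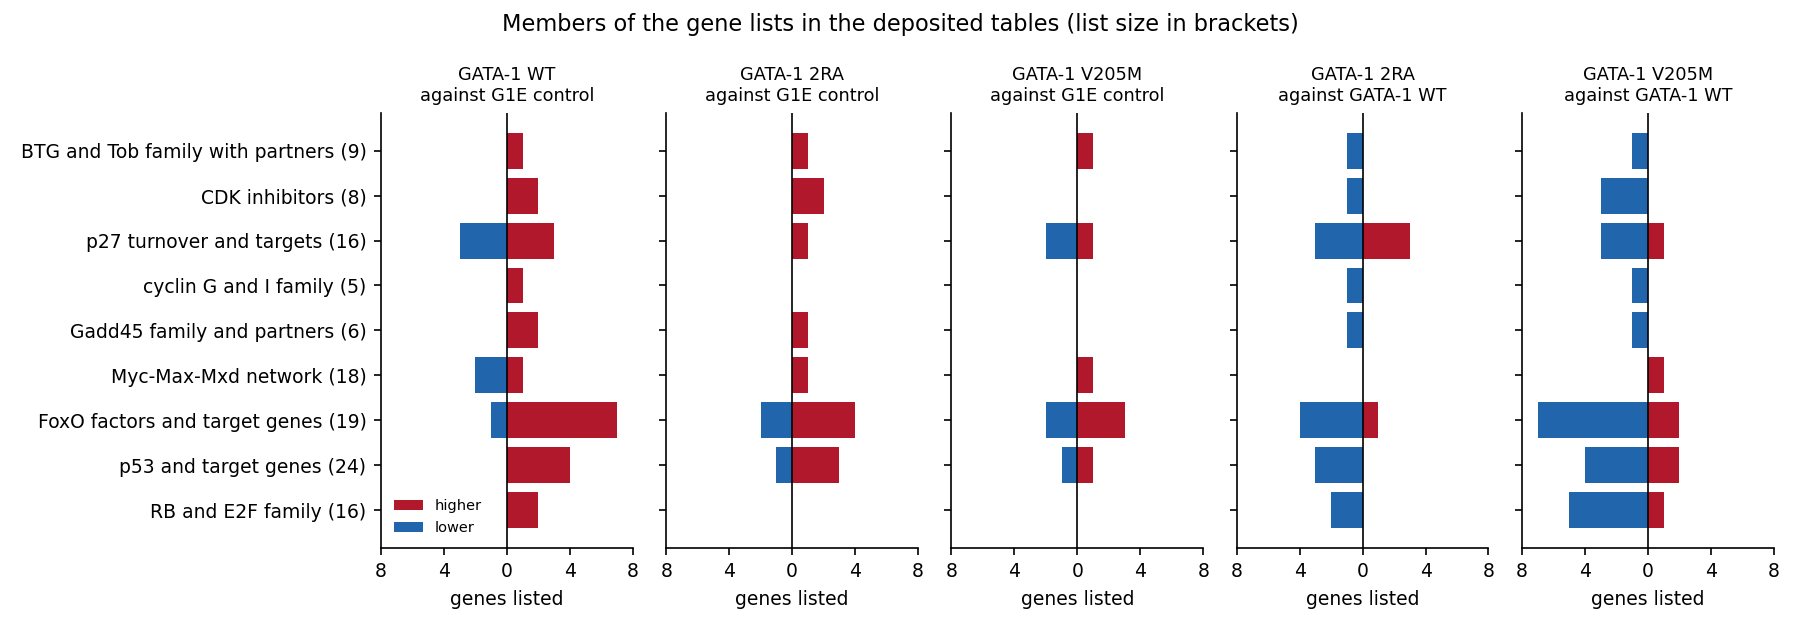
Number of genes of each of the 9 lists that were listed as higher or as lower in each pair with the G1E control or GATA-1 WT. The pair of the mutants is not drawn. The FoxO list has the most listed genes in GATA-1 WT against the G1E control, 7 higher and 1 lower of 19.

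FoxO factors are known in other settings to drive Cdkn1b, Ccng2 and Gadd45a, and the list of FoxO factors and target genes, which holds these members, had 7 higher and 1 lower of 19 in GATA-1 WT against the control. Of these 8 genes, 3 are members and were chosen with results known. Foxo3 had 751 scaled reads in GATA-1 WT and 269 in the control, Txnip 380 in GATA-1 WT and 26.0 in the control, and Bnip3 760 in GATA-1 WT and 35.8 in the control. Cited2 was lower, at 32.1 in GATA-1 WT and 274 in the control. Against the control, the list had 4 higher and 2 lower in GATA-1 2RA, and 3 higher and 2 lower in GATA-1 V205M. Against GATA-1 WT, it had 1 higher and 4 lower in GATA-1 2RA, and 2 higher and 7 lower in GATA-1 V205M. Foxo3 had 624 scaled reads in GATA-1 2RA against 269 in the control and was listed as higher there, as were Cdkn1b and Txnip (224 in GATA-1 2RA, 26.0 in the control), while Ccng2 and Gadd45a were not listed in that pair. Bnip3 had 30.7 scaled reads in GATA-1 2RA against 760 in GATA-1 WT.

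Btg2 and Gadd45a are also known targets of p53. Of the 24 genes of p53 and its targets, 4 were higher and 0 lower in GATA-1 WT against the control, the other two being Trp53inp1 and Bax. Trp53inp1 had 173 scaled reads in GATA-1 WT and 70.3 in the control, and Bax had 469 in GATA-1 WT and 208 in the control. Of the 4, 2 are members, and a count of 4 of 24 is not far from the 13.0% of tested genes listed in that pair. GATA-1 2RA against the control had 3 higher and 1 lower, with Sesn1 at 67.2 scaled reads in GATA-1 2RA and 146 in the control. In GATA-1 V205M against GATA-1 WT, 2 were higher and 4 lower, the higher ones being Zmat3, with 382 scaled reads in GATA-1 V205M and 138 in GATA-1 WT, and Phlda3, with 54.1 in GATA-1 V205M and 15.8 in GATA-1 WT. Of the 16 genes of the RB and E2F family, Tfdp2 (197 scaled reads in GATA-1 WT, 65.8 in the control) and Lin37 (213 in GATA-1 WT, 100 in the control) were listed as higher in GATA-1 WT. A count of 2 of 16 is near the 13.0% of tested genes listed in that pair. Against GATA-1 WT, this family had 0 higher and 2 lower in GATA-1 2RA, and 1 higher and 5 lower in GATA-1 V205M.

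The size of the WT ratios depends on how libraries are scaled, as the plot of ratios by scaling shows. With TMM over the 1157 genes, which were themselves selected for change, the median log2 difference of GATA-1 WT against the control shifted by -0.65, and with upper quartile scaling by -0.91. Btg2 was 51.9 times the control under upper quartile scaling, Cdkn1b 3.65, Ccng2 3.97, Gadd45a 1.63, Gadd45g 2.87 and Mxd1 1.95. All 6 stayed above the control under both scalings, but Gadd45a (1.96 with TMM) and Mxd1 (under upper quartile scaling) came below 2-fold. For GATA-1 2RA against the control, the ratio came below 2-fold under both scalings for Cdkn1b, at 1.6 with TMM and 1.47 with upper quartile scaling, and for Mxd1, at 1.67 and 1.53. For Ccng2 in GATA-1 V205M the ratio to the control was 0.998 under upper quartile scaling. Gadd45a stayed below the control in both mutants under both, at 0.313 for GATA-1 2RA and 0.480 for GATA-1 V205M with upper quartile scaling.

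**Figure D5:**
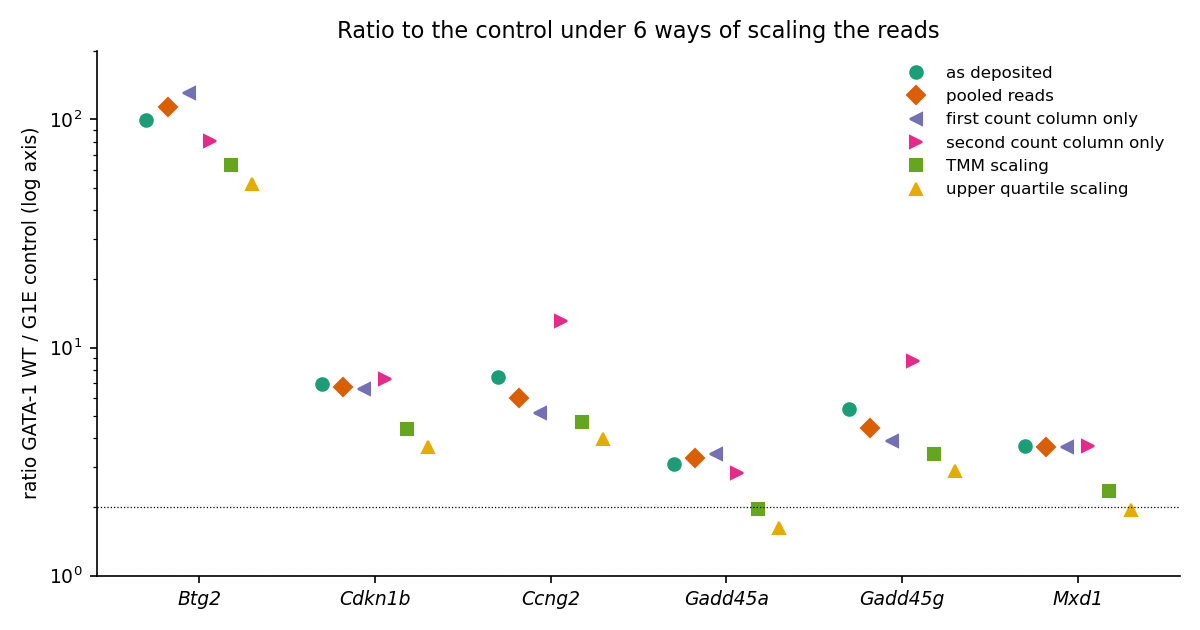
Ratio of GATA-1 WT to the G1E control (log axis) for the 6 members under the authors' size factors, TMM scaling, upper quartile scaling and each control count column alone. All ratios lie above 1, the lowest being 1.63 for Gadd45a under upper quartile scaling.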

How the data were processed

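Bulk RNA-seq of 4 groups of G1E cells, 1 sample each, was taken from the authors' 6 deposited pairwise tables. The tools named in the submitters' processing notes were Cuffdiff, Cufflinks, TopHat and deepTools, with the mm10 genome build. Neither their versions nor the tool behind the tables could be found in the sources used. The signal in each deposited table is the mean read count of a group divided by a size factor. The deposited fold is a ratio of these means, the deposited log2 fold its logarithm, and the deposited p-value comes with an adjusted p over 12931 genes. The authors' limits for listing a gene were 0.01 on the adjusted p-value and a 2-fold change.

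Here, whole reads were recovered from the deposited signal for 100% of values (tolerance 1e-06), which gave exact 95% counting intervals of the reads pooled over count columns. Pairs were compared on log2 of scaled reads plus 1, with no test, because each group has 1 sample. The adjusted p-values of the authors' tables may treat the 2 count columns of the G1E control and GATA-1 V205M as replicates. No column of per-sample values was left unmapped. Genes were placed on GRCm38 with GENCODE M21, and promoter windows are from RefSeq. The 6 members were named in full, with the 3 genes most like each member. For the gene lists, the plan was to name up to 4 listed genes per list and pair. Not all of these are given, and a few further list members were chosen after their values were seen. The members and lists were chosen with earlier results of these data known. A planned comparison of the proteins was not done. Alternatives were a pseudocount of 10, TMM and upper quartile scaling, single count columns, stricter limits (4-fold, adjusted p below 1e-05, 50 scaled reads), a Pearson correlation for like genes, and, added after seeing the data, pooled reads and an edgeR test of the recovered reads. Scripts were tested on simulated data. Python with numpy 2.4.6, scipy 1.17.1, pandas 2.3.3 and matplotlib 3.10.9 was used, and R 4.3.3 with edgeR 4.0.16.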

Additional observations from a re-analysis of the deposited data

Results flagged for a closer look

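Gadd45a ran opposite ways in the comparisons with the G1E control. The log2 difference, from scaled reads plus 1, was -1.09 for GATA-1 2RA and -0.67 for GATA-1 V205M, against 1.61 for GATA-1 WT. Both mutant levels lay below the control and the GATA-1 WT level above it, and the difference between these comparisons was not tested. The 3 comparisons share the G1E control sample, and in the authors' deposited tables Gadd45a was listed against the control for GATA-1 WT only. The control level rests on 51 and 19 reads in its 2 count columns, and the GATA-1 2RA level on 31 reads.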

How the results depend on the processing

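Each group has 1 sample, so no replicate could be left out, and no paired analysis was possible because each group has 1 sample. Requiring an adjusted p below 1e-05 in the authors' deposited tables left 3 of the 6 members in GATA-1 WT against the control (Btg2, Cdkn1b and Mxd1) and 1 of 4 in GATA-1 2RA against the control (Btg2). Requiring a change above 4-fold left 2 in GATA-1 2RA against the control (Btg2 and Gadd45g) and 1 in GATA-1 V205M against the control (Btg2). An edgeR quasi-likelihood test of the recovered reads of 1157 genes was added after seeing the data. It took count columns as replicates, though they may be runs of 1 sample. For GATA-1 V205M against the control, its log2 folds were 4.13 for Btg2, 0.712 for Cdkn1b, 0.0465 for Ccng2, -0.609 for Gadd45a and 1.73 for Mxd1. For GATA-1 2RA against GATA-1 V205M, they were -0.063 for Btg2, 0.339 for Cdkn1b, 0.355 for Ccng2, -0.439 for Gadd45a and -0.585 for Mxd1. It called most of the 1157 genes in both pairs, so its calls of members say little. Of 33 member differences, 13 moved beyond their counting interval under TMM scaling and 18 under upper quartile scaling, where the median log2 difference shifted by up to -0.91. With a pseudocount of 10, 3 moved, with the second count column alone 5 of 27, and with the first column alone, pooled reads or no pseudocount 0. The cause of these shifts was not tested. The lowest levels were in the control, where Btg2 rests on 10 and 5 reads, Gadd45g on 22 and 3 and Ccng2 on 25 and 3, which limits their ratios.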
